A study of Homo sapiens with 4 samples.

Results

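The genes of cyclin E (CCNE1 and CCNE2), of its kinase CDK2 and of 7 proteins that act on that kinase or in the same G1/S switch (CDKN1B, CDKN1C, CDC25A, FBXW7, E2F1, RB1 and RBL1) were followed in neuroblastoma (NB) cells with and without METTL14 knockdown. These 10 genes, of 60671 in the count table, were taken by symbol, with no threshold. They were selected on their known roles and on earlier results of this same comparison, so their differences between groups are given as a description, without a test. The cells were SK-N-BE(2), an established human NB line, and RNA was sequenced from 2 libraries with a control hairpin (shNC) and 2 libraries with a hairpin against METTL14 (shMETTL14). METTL14 encodes the RNA-binding partner of METTL3 in the enzyme complex that writes N6-methyladenosine (m6A) into RNA. According to the study's methods, knockdown used the pLKO.1 lentiviral vector with puromycin selection of stable lines, and the vector of the control hairpin is not given in the sources used here. The labels do not give which METTL14 hairpin the sequenced cells carried. Nothing states that the replicates were separate cultures, so each error below covers only the spread between these libraries.

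Cyclin E binds and activates CDK2 as cells pass from G1 into S phase. The kinase is held back by the inhibitors p27 (CDKN1B) and p57 (CDKN1C), is activated when the phosphatase CDC25A removes inhibitory phosphates, and loses its cyclin when the ubiquitin ligase that contains FBXW7 marks phosphorylated cyclin E for destruction. CDK2 and the cyclin D kinases phosphorylate the pocket proteins RB (RB1) and p107 (RBL1), which frees E2F factors to transcribe genes of S phase, the cyclin E genes among them. Amplified MYCN, as in SK-N-BE(2), is known to promote passage through this switch, and much of the control acts on proteins, which these RNA counts do not measure.

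The promoters of 7 of the 10 genes were found in the RefSeq table (GRCh38.p14, 250 bases before to 50 bases after the start), and CCNE2, CDK2 and CDKN1C were not. The windows of CCNE1, E2F1, CDC25A and RBL1 are shown because they carry the words of interest for this switch. Capitals mark GGGCGG on either strand, the core of an SP1/KLF site, in CCNE1 and an E2F word on either strand in the other windows. The E2F words searched were TTTCCCGC, TTTGGCGC, TTTCGCGC and TTTGCCGC. The windows, each 5′ to 3′ on the strand of its gene, are chr19:29811741-29812040 (plus) for CCNE1, chr20:33686336-33686635 (minus) for E2F1, chr3:48188368-48188667 (minus) for CDC25A and chr20:37095948-37096247 (minus) for RBL1.
CCNE1: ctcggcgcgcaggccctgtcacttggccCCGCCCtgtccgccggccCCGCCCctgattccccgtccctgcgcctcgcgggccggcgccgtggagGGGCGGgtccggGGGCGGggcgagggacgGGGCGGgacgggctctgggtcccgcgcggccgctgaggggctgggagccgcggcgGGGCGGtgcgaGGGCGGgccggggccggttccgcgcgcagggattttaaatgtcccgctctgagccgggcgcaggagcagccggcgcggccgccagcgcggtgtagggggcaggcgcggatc
E2F1: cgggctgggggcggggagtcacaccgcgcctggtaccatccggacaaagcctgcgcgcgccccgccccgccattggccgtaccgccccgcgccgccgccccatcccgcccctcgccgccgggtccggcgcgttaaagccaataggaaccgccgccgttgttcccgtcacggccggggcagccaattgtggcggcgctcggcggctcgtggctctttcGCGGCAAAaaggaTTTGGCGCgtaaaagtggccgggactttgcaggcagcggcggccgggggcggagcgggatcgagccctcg
CDC25A: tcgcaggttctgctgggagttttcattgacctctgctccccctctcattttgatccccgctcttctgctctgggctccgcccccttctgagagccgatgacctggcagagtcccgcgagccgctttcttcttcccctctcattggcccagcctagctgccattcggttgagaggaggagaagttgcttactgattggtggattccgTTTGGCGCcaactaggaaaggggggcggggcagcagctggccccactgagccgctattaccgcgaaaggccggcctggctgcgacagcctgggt
RBL1: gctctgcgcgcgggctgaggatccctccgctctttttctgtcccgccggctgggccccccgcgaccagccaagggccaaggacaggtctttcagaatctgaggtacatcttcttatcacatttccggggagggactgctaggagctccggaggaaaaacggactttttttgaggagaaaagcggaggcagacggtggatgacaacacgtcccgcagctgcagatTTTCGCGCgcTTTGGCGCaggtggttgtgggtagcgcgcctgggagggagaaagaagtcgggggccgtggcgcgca

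An E2F word was present in 3 of the 7 windows and in 3.33% of all 27305 promoter windows (5.33% of the 11335 that belong to genes tested here). In E2F1 the first bases of its 2 matches lay at -33 and -20 from the start, in RBL1 at -26 and -16, and in CDC25A the single match lay at -44. The CCNE1 window held none of these words but 7 copies of GGGCGG. That word was in 5 of the 7 windows and in 44.6% of all windows (69.6% for genes tested). CCAAT was in 3 of the 7 windows, against 35.7% of all windows (36.8% for genes tested). The E-box CACGTG, known as a MYC family word, was in 0 of 7 windows, against 7.43% of all (10.1% for genes tested). The cell cycle homology words TTTGAA and TTCGAA were in 0 of 7, against 16.6% of all (11.4% for genes tested). None of the E2F matches overlapped a GGGCGG or CCAAT match. A word is a match of letters in this window and no evidence of binding. The 3 genes with an E2F word did not share a direction in the knockdown, as described below. E2F1 and CDC25A were higher, and RBL1 was lower, a call lost in 3 of 11 alternative fits.

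The targeted gene was examined first as a check of the labels. METTL14 (chr4:118685368-118715433, plus strand, GENCODE 29 on GRCh38) had 753 and 754 counts with shNC, and 303 and 321 with shMETTL14. The groups did not overlap, and the level after knockdown was 41.7% of that in shNC, from 38.6 ± 1.13 to 16.1 ± 0.851 CPM (counts scaled to library size after TMM normalisation, SD, n = 2). On the log2 scale METTL14 fell by 1.26 (SE 0.0832, edgeR adjusted p 3.6e-11).

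Library depth was even, from 18925786 to 19886214 counts in genes, and 16309 genes were expressed highly enough to be tested. All 7 NB markers reported (PHOX2A, HAND2, GATA3, ISL1, TH, DBH and MYCN) were detected, with a summed level of 4566 to 4602 CPM in shNC and 4831 to 4888 CPM in shMETTL14. Of these 7, 2 were called higher (MYCN and ISL1) and 5 lower, with a median log2 fold change of -0.16. MYCN made up most of the sum, at 2616 CPM in shNC and 3173 CPM in shMETTL14, while DBH was at 57.9% and TH at 76.9% of the control. The 6 fibroblast markers summed to 333 to 335 CPM in shNC and 305 to 323 CPM in shMETTL14, and LUM made up most of that level, at 238 CPM and 247 CPM. Of those 6, 1 was called higher (COL1A2) and 3 lower, with PDGFRA at a log2 fold change of -2.13. The 6 epithelial markers summed to 7.73 to 8.30 CPM in shNC and 4.52 to 5.36 CPM in shMETTL14, with KRT5 at 0 in every library and CDH1 at 1 count in a single library. The 6 immune markers summed to 1.87 to 2.61 CPM over all libraries. The part of these shifts in the results below was not tested. In bulk RNA, fewer cells in a given phase and less RNA per cell cannot be told apart.

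Of the 10 genes, all were expressed highly enough to be tested, and 9 had an adjusted p under 0.05 in edgeR, 6 higher and 3 lower in shMETTL14. Across all genes tested, 52.5% were called, 27.2% higher and 25.3% lower, and upper quartile scaling turned the 4438 higher and 4123 lower genes into 3550 and 4961. The libraries of the groups did not overlap in CPM for all 10 genes, as for 75.5% of all genes. A change of at least 2-fold together with a call was seen for CCNE1, CCNE2 and CDKN1C, and for 8.79% of all genes. Because the genes were chosen on this comparison, nothing is read from these counts. The median log2 fold change was 0.35 over the 10 genes and -0.00095 over all genes tested.

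**Figure D1:**
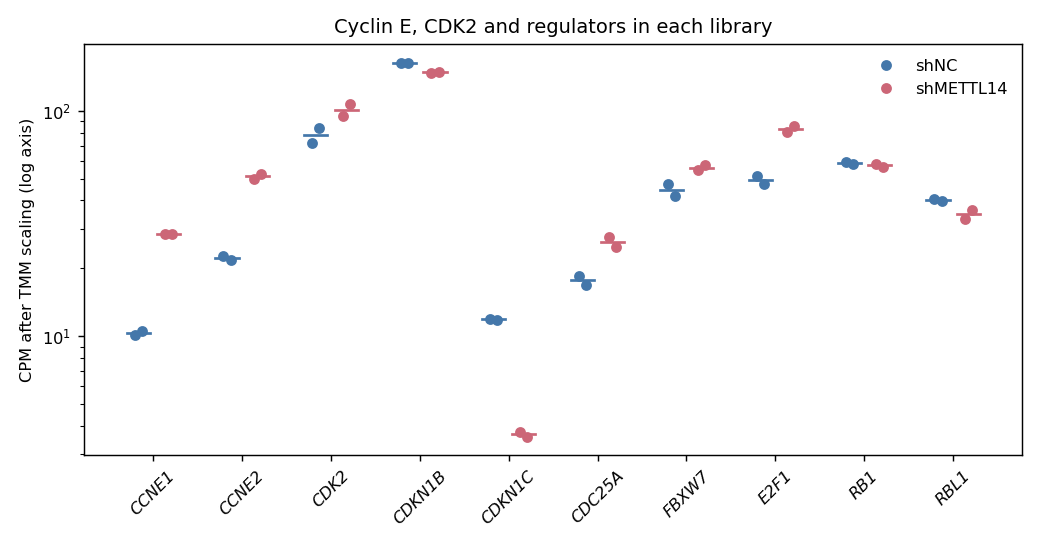
Level of each of the 10 genes in each library, as CPM after TMM scaling on a log axis. Points are single libraries, 2 per group, and bars are group means. CCNE1 and CCNE2 lie higher and CDKN1C lower in shMETTL14, with wide gaps between groups, whereas the points of RB1 nearly meet.

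CCNE1, which encodes cyclin E1, had the highest fold change of the 10. The gene (ENSG00000105173, chr19:29811898-29824308, plus strand, 12 exons in the transcript with the longest coding sequence) shares no exon base with another annotated gene. There were 201 and 202 counts in the shNC libraries, and 557 and 547 with shMETTL14. Both knockdown libraries lay far above both controls, and the replicates differed by few counts. The mean level was 10.3 ± 0.328 CPM in shNC and 28.4 ± 0.0181 CPM in shMETTL14 (SD, n = 2), which is 276% of the control, a log2 fold change of 1.46 (SE 0.0942). Of all genes tested, 1.16% had a higher log2 fold change. The study itself reports the other direction for cyclin E1. After METTL14 knockdown it describes a longer G0-G1 phase and markedly reduced cyclin D1 and cyclin E1, for which its methods list western blot antibodies. Why this RNA and that measurement differ in direction was not tested.

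CCNE2, the gene of cyclin E2, moved the same way. It had 451 and 417 counts in shNC, against 976 and 1009 in shMETTL14, and the groups were again well separated. This was 22.2 ± 0.601 CPM against 51.1 ± 1.82 CPM (SD, n = 2), or 230% of the control, a log2 fold change of 1.20 (SE 0.0737). The gene (ENSG00000175305, chr8:94879770-94896678, minus strand, 12 exons) shares 37.1% of its exon bases with exons of other genes, INTS8 on the other strand among them. The strand setting of the counting is not given in the sources used here, so reads of the shared stretch are uncertain. INTS8 itself had 1003 and 979 counts in shNC, and 1015 and 967 in shMETTL14, with overlapping groups and a log2 fold change of 0.01 (SE 0.0598, edgeR adjusted p 0.911). NDUFAF6, whose locus also overlaps CCNE2, had a log2 fold change of 0.22 (edgeR adjusted p 0.0518).

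CDK2, the catalytic partner, differed by less. Its counts were 1440 and 1611 in shNC, and 1855 and 2052 in shMETTL14, so the groups did not overlap, but the replicates within each group lay further apart than those of the cyclins. The means of 78.2 ± 8.4 CPM and 101 ± 8.4 CPM (SD, n = 2) gave 129% of the control, a log2 fold change of 0.37 (SE 0.0632). That value was 0.25 without shNC replicate 1 and 0.48 without shNC replicate 2. CDK2 (ENSG00000123374) lies at chr12:55966769-55972784 on the plus strand and shares 16.8% of its exon bases with other genes, PMEL on the other strand among them. PMEL had between 10 and 23 counts per library.

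CDKN1C, the gene of the inhibitor p57, had the lowest fold change of the 10. There were 238 and 226 counts in shNC, and 74 and 69 in shMETTL14. The groups were widely separated and the replicates close. The level went from 11.9 ± 0.0979 CPM to 3.68 ± 0.137 CPM (SD, n = 2), which is 31.0% of the control, at a log2 fold change of -1.69 (SE 0.146). The gene (ENSG00000129757, chr11:2883213-2885773, minus strand, 3 exons) shares no exon with another annotated gene.

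CDKN1B, the gene of p27, was the most abundant of the 10 and moved little. Its counts were 3245 and 3129 in shNC, and 2893 and 2849 in shMETTL14. The groups did not overlap, at 163 ± 0.423 CPM and 148 ± 0.198 CPM (SD, n = 2), and the level in shMETTL14 was 90.7% of the control. The log2 fold change of -0.14 (SE 0.0417) was no longer called with DESeq2 (-0.13), without shMETTL14 replicate 1 (-0.14) or without shMETTL14 replicate 2 (-0.13). CDKN1B (ENSG00000111276) lies at chr12:12715058-12722371 on the plus strand. Of the inhibitor genes, the scarce one thus differed by more than 3-fold between groups, and the abundant one differed less than either cyclin E gene or CDK2.

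CDC25A encodes the phosphatase that removes inhibitory phosphates from CDK2. Counts of 370 and 322 in shNC compared with 540 and 478 in shMETTL14, without overlap. The level of 26.2 ± 1.94 CPM in shMETTL14 stood against 17.7 ± 1.24 CPM in shNC (SD, n = 2), which is 148% of the control, a log2 fold change of 0.57 (SE 0.0914). The gene (ENSG00000164045) lies at chr3:48157146-48188402 on the minus strand, with 15 exons in the transcript with the longest coding sequence.

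FBXW7 encodes the part of an SCF ubiquitin ligase that recognises phosphorylated cyclin E. Its counts were 944 and 802 in shNC, and 1069 and 1103 in shMETTL14. The groups did not overlap, although the shNC replicates were spread, at 44.6 ± 3.87 CPM against 56.0 ± 1.92 CPM (SD, n = 2). The level was 125% of the control, a log2 fold change of 0.33 (SE 0.0663). The gene (ENSG00000109670, chr4:152320544-152536063, minus strand) shares 1.15% of its exon bases with its antisense gene FBXW7-AS1. The RNA of this ligase subunit and that of its cyclin substrates were therefore both higher in shMETTL14.

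E2F1 encodes the E2F factor best known for driving entry into S phase. It had 1022 and 906 counts in shNC, and 1578 and 1642 in shMETTL14, with a clear gap between groups. The level rose from 49.3 ± 2.8 CPM to 83.0 ± 3.34 CPM (SD, n = 2), or to 168% of the control, a log2 fold change of 0.75 (SE 0.057). The gene (ENSG00000101412, chr20:33675683-33686404, minus strand, 7 exons) overlaps no other annotated gene.

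The pocket proteins that bind E2F factors did not follow E2F1. RB1, which encodes RB, had 1179 and 1112 counts in shNC, and 1134 and 1087 in shMETTL14, at 58.6 ± 0.764 CPM and 57.2 ± 1.02 CPM (SD, n = 2). It was the only one of the 10 that was not called, with a log2 fold change of -0.04 (SE 0.056). RBL1, which encodes p107, had 811 and 759 counts in shNC, and 649 and 697 in shMETTL14. Its level was 40.2 ± 0.744 CPM against 34.7 ± 2.17 CPM (SD, n = 2), 86.4% of the control, and the log2 fold change was -0.21 (SE 0.0722). The RBL1 call was lost with DESeq2 (-0.21), without shMETTL14 replicate 1 (-0.15) and without shNC replicate 1 (-0.20). RB1 (ENSG00000139687) lies at chr13:48303726-48599436 on the plus strand and RBL1 (ENSG00000080839) at chr20:36996349-37095995 on the minus strand.

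**Figure D2:**
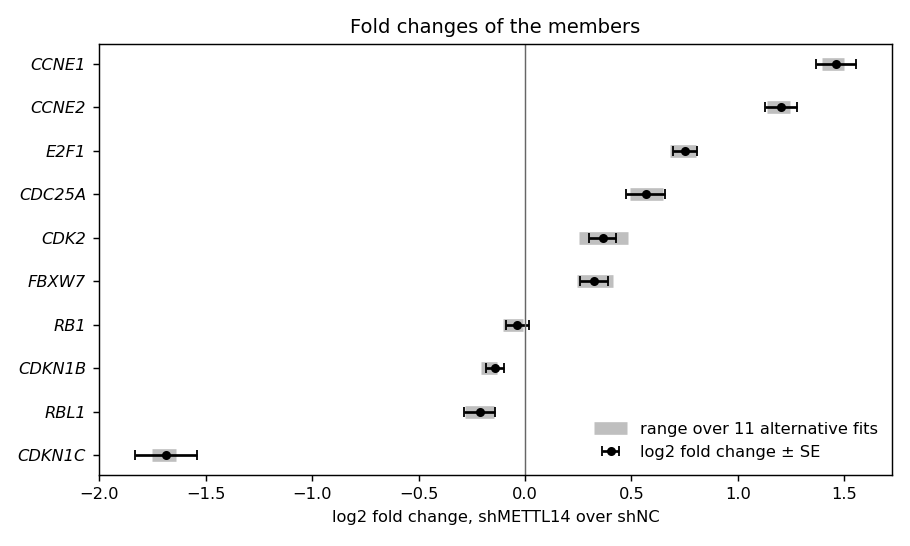
Log2 fold change, shMETTL14 over shNC, of the 10 genes in order of size. Points with bars are the edgeR estimate ± SE from 2 libraries per group, and grey bands span the 11 alternative fits. CCNE1 at 1.46 and CDKN1C at -1.69 mark the ends, and RB1 at -0.04 lies nearest to 0.

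Levels of different genes were compared per kilobase of annotated exon, scaled so that each library sums to the same total, which takes out the length of a gene. In shNC, CDKN1B stood highest at 191 ± 0.825 (SD, n = 2), followed by CDK2 at 65.9 ± 6.63 and E2F1 at 64.7 ± 4.12, whose libraries overlapped. RB1 (29.8 ± 0.596) and RBL1 (22.2 ± 0.564) came next and were apart from their neighbours. The remaining genes were CCNE2 at 16.6 ± 0.564, CDKN1C at 15.7 ± 0.239, CDC25A at 14.1 ± 1.08, CCNE1 at 13.3 ± 0.331 and FBXW7 at 13.2 ± 1.24, and the last 3 overlapped with their neighbours. In control cells, then, both cyclin E genes and CDKN1C lay within a narrow band of levels near the bottom.

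In shMETTL14 that band opened. CCNE2 reached 35.3 ± 1.07 and CCNE1 33.9 ± 0.201, now the 4th and 5th highest of the 10 and above RB1 at 26.9 ± 0.621, while CDKN1C at 4.51 ± 0.192 was the lowest. E2F1 at 101 ± 3.52 lay above CDK2 at 78.5 ± 6.13. The order depends in part on the length used. With the longest transcript in place of all exons, FBXW7 ranked 5th rather than 10th in shNC, CDC25A ranked 10th, and CDK2 stayed above E2F1 in shMETTL14 (91.5 ± 7.01 against 78.2 ± 2.61).

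**Figure D3:**
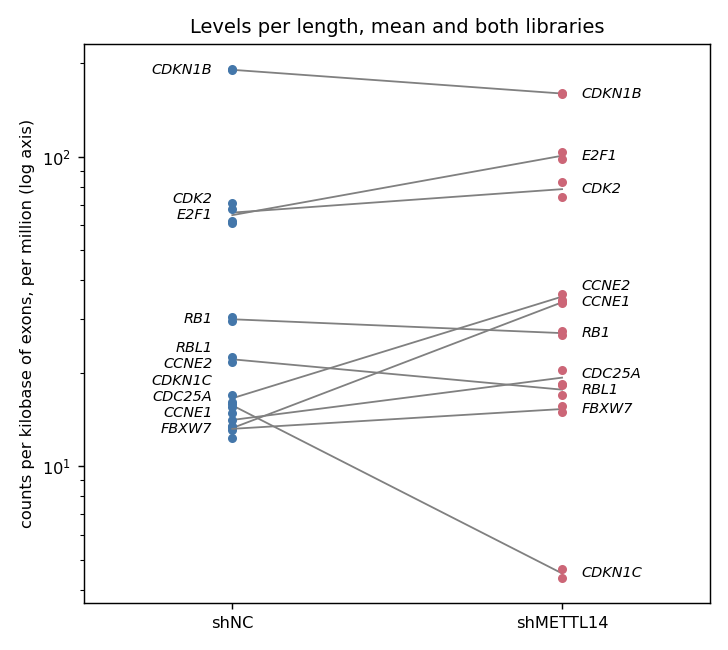
Level of each gene as counts per kilobase of exon, scaled as described, on a log axis, in shNC and shMETTL14. Points are single libraries, lines join the group means, and names are spaced in the order of the means. CCNE1 and CCNE2 climb past RB1, and CDKN1C drops from 15.7 to 4.51.

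The balance between partners can be given as ratios of these levels, library by library. CCNE1 made up 43.5% and 45.5% of the summed cyclin E level in shNC, and 49.6% and 48.3% in shMETTL14, while that sum went from 30.0 and 29.7 to 68.5 and 69.8. In these counts CCNE1 thus held less of the sum than CCNE2 in every library, and the shares lay closer together in shMETTL14. CCNE2 shares 37.1% and CDK2 16.8% of exon bases with other genes, and CCNE1 shares none. With the strand setting not given, the levels of CCNE2 and CDK2 and the ratios that use them are uncertain. The ratio of CCNE1 to CDK2 was 0.213 and 0.191 in shNC, and 0.459 and 0.407 in shMETTL14. The ratio of CCNE1 to the inhibitor CDKN1B was 0.0683 and 0.0712 in shNC, and 0.212 in each shMETTL14 library. CDKN1B exceeded CDKN1C by 12.0-fold and 12.2-fold in shNC, and by 34.5-fold and 36.4-fold in shMETTL14. The libraries of the groups did not overlap in any of these ratios. All 10 genes, chosen on this comparison, already had groups that did not overlap, as had 75.5% of all genes tested. Nothing is read from that separation. They describe RNA and say nothing of the amounts of protein.

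The other genes that bear on CDK2 were described from a list of 18, all of them tested. Of these, 5 rose and 6 fell (3 and 3 with DESeq2), where 27.2% of all genes were higher and 25.3% lower, and the median log2 fold change was 0.06. Its inhibitor CDKN1A, which encodes p21, had 119 and 85 counts in shNC and 55 and 56 in shMETTL14, and fell with a log2 fold change of -0.87 (SE 0.208, edgeR adjusted p 0.00138). All 3 genes of the CIP/KIP inhibitor family were thus called lower, CDKN1B with the limits given above. CCNA1, the germline cyclin A gene, had 31 and 37 counts in shNC but 0 and 2 in shMETTL14, which is 2.96% of the control level with an exact 95% interval of 0.351% to 11.1% for counting error. CCNA2, the cyclin A gene of dividing somatic cells and the later partner of CDK2, had a log2 fold change of only 0.10 (edgeR adjusted p 0.0444). That call was lost in 8 of 11 alternatives, among them the fits without shMETTL14 replicate 1 (0.07) and without shNC replicate 1 (0.07).

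The kinases and phosphatases that set the inhibitory phosphates of CDKs differed among themselves. PKMYT1, which encodes the inhibitory kinase MYT1, had 969 and 912 counts in shNC and 1350 and 1299 in shMETTL14, and rose with a log2 fold change of 0.50 (SE 0.0562, edgeR adjusted p 1.3e-07). Its exons overlap KREMEN2 and PAQR4, so its counts are uncertain. Exons of other genes in this list and those below also overlap coding genes, and not each is marked. Among them are CCNA2, CDC25C, CCNH, SKP1, FZR1, E2F5 and TYMS. WEE1, the other inhibitory kinase gene, had a log2 fold change of 0.08 and was not called (edgeR adjusted p 0.287). Of the CDC25 family, CDC25A was higher as described, whereas CDC25C, which acts mainly at entry into mitosis, had 715 and 742 counts in shNC and 532 and 541 in shMETTL14 and fell (-0.43, SE 0.0764, edgeR adjusted p 5.9e-05). CDC25B had a log2 fold change of -0.10 (edgeR adjusted p 0.0459), a call lost with DESeq2 (-0.10), without the low-count filter (-0.09) and when any 1 of the 4 libraries was left out (-0.14 to -0.06).

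Among the remaining CDK2 control genes, those of the CDK2-associated proteins rose, CDK2AP1 by a log2 fold change of 0.37 (edgeR adjusted p 3.1e-07) and CDK2AP2 by 0.48 (edgeR adjusted p 3.8e-06). CABLES2 had 0.48 (edgeR adjusted p 0.00382), which was not called with DESeq2. Of the CDK-activating kinase, which phosphorylates the activation loop of CDK2, CDK7 (0.13) and CCNH (-0.06) were not called. Its assembly factor MNAT1 had -0.32 (edgeR adjusted p 0.00456), and the call was lost with DESeq2 (-0.32) and without shMETTL14 replicate 2 (-0.21). The CDK-binding subunits CKS1B and CKS2 had overlapping groups.

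Genes of protein turnover around cyclin E, p27 and other cell cycle proteins were described from a list of 18. The list mixes parts of ubiquitin ligases with genes that oppose them (FBXO5, USP28 and USP37). Its counts therefore give no direction for the destruction of cyclin E or p27. All 18 were tested, 11 rose and 3 fell (6 and 5 under upper quartile scaling, 7 and 1 with DESeq2), against 27.2% and 25.3% of all genes, and the median log2 fold change was 0.16. Of the core of the SCF ligases, SKP1 rose from 2219 and 2237 counts to 2844 and 2935 (0.38, edgeR adjusted p 3.2e-07), RBX1 rose by 0.41 (edgeR adjusted p 1.5e-05), and the scaffold gene CUL1 rose by 0.16 (edgeR adjusted p 0.0028), a call lost under upper quartile scaling. SKP2, which encodes the F-box protein that marks p27, went the other way, from 5172 and 4975 counts to 4421 and 4471, and fell by 0.18 on the log2 scale (SE 0.0397, edgeR adjusted p 5.9e-04). FBXO5, which encodes the APC/C inhibitor EMI1 and is itself an E2F target, had the highest fold change of the list. It had 1337 and 1352 counts in shNC and 1936 and 1773 in shMETTL14, with a log2 fold change of 0.47 (SE 0.0522, edgeR adjusted p 1.1e-07). FZR1, which encodes the APC/C activator CDH1 of G1 phase, had -0.21 (edgeR adjusted p 0.00502), and the call was lost with DESeq2 (-0.20) and without shMETTL14 replicate 1 (-0.15). USP28 (0.04) and USP37 (-0.09), which encode deubiquitinases linked to FBXW7 substrates and to cyclin A, were not called.

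The E2F and pocket protein genes other than E2F1, RB1 and RBL1 formed a list of 16, of which 15 were tested. LIN37 had too few counts to be tested, 8 to 19 per library. It shares exons with AD000671.1 on the same strand, so its counts are uncertain. There were 8 genes higher and 1 lower, against 27.2% and 25.3% of all genes, and the median log2 fold change was 0.17. Among the activating factors, E2F2 rose by 0.39 (edgeR adjusted p 3.2e-06), less than E2F1, and E2F3 had 0.17 (edgeR adjusted p 0.0166), a call lost in 5 of 11 alternatives, which were DESeq2 (0.18), library size alone (0.13), upper quartile scaling (0.11) and the fits without shMETTL14 replicate 1 (0.16) and without shNC replicate 2 (0.13). Among those that repress, E2F4 (0.28), E2F6 (0.44) and E2F7 (0.53) rose, with edgeR adjusted p of 1.1e-04, 9.3e-05 and 2.5e-06, as did E2F5 (0.38, edgeR adjusted p 4.1e-04). E2F8 had a log2 fold change of 0.14 and was not called (edgeR adjusted p 0.16). TFDP1, whose product pairs with E2F factors to bind DNA, rose from 3087 and 2981 counts to 4080 and 4018 (0.43, SE 0.0407, edgeR adjusted p 1.4e-08). MYBL2, an E2F target that encodes B-MYB, rose from 3114 and 2890 counts to 4376 and 4302 (0.54, SE 0.0412, edgeR adjusted p 3.8e-10).

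RBL2, which encodes the pocket protein p130 of resting cells, was the only gene of that list that fell. It had 1916 and 1873 counts in shNC and 1233 and 1189 in shMETTL14, a log2 fold change of -0.64 (SE 0.0494, edgeR adjusted p 5.0e-10), and the groups were far apart. Its exons overlap AKTIP on the other strand. Per length, the ratio of RBL2 to RBL1 was 1.92 and 2.01 in shNC, and 1.55 and 1.39 in shMETTL14, and the ratio of RB1 to RBL1 was 1.34 and 1.35 in shNC, and 1.61 and 1.44 in shMETTL14. Of the 3 pocket protein genes, RBL2 therefore differed most between groups and RB1 least.

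The genes that E2F factors are known to transcribe were described from a list of 28, all tested. Of these, 23 rose and 2 fell, against 27.2% and 25.3% of all genes, with a median log2 fold change of 0.25. The highest were CLSPN (0.89, edgeR adjusted p 8.0e-12), FEN1 (0.84, edgeR adjusted p 1.5e-11) and SLBP (0.80, edgeR adjusted p 2.2e-11), which serve the replication checkpoint, the processing of Okazaki fragments and histone messages. FEN1 exons overlap TMEM258 and FADS2. The lowest called genes were CASP8AP2 (-0.24, edgeR adjusted p 7.9e-04), POLA1 (-0.18, edgeR adjusted p 0.00471) and TYMS (0.12, edgeR adjusted p 0.0387). The POLA1 call was lost with DESeq2 (-0.17) and without shMETTL14 replicate 2 (-0.12), and that of TYMS in 9 of 11 alternatives, including each fit that left out 1 library (0.10 to 0.15). Of the 25 promoters of this list in the RefSeq table, 15 held an E2F word. In the other lists it was 4 of 14 for E2F and pocket protein genes and 2 of 16 for mitotic genes. It was 1 of 15 for turnover genes and 0 of 16 for CDK2 control genes. The share in windows of genes tested was 5.33%. The summed level of the list went from 3438 and 3452 CPM in shNC to 4232 and 4178 CPM in shMETTL14.

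Genes of mitosis, which act after the step at which cyclin E works, were described from a list of 20, all tested. Of these, 15 fell, against 25.3% of all genes, and 5 were not called, with a median log2 fold change of -0.18. AURKA (0.09) and BIRC5 (0.05), both not called and named after their values were seen, lay above 0. NUSAP1, also not called and named in the same way, had 10 to 16 counts per library. It shares exons with AC087721.2 on the same strand, so its counts are uncertain. The lowest were TOP2A (-1.24, edgeR adjusted p 1.1e-16), CENPF (-0.73, edgeR adjusted p 3.6e-13) and CENPE (-0.60, edgeR adjusted p 8.3e-11), for chromosome untangling and kinetochores. The called genes nearest to 0 were BUB1B (-0.11), BUB1 (-0.14) and CCNB1 (-0.16). The calls of BUB1 and BUB1B were lost with DESeq2 (-0.14 and -0.11) and without shMETTL14 replicate 2 (-0.13 and -0.07), and that of BUB1B also without the low-count filter (-0.10) and without shNC replicate 2 (-0.07). The summed level went from 5940 and 6030 CPM to 4579 and 4487 CPM. Of the 16 promoters of this list in the table, 11 held a cell cycle homology word, against 11.4% of windows of genes tested. None of the 7 promoters above held one. The lists were written with earlier results of these data known, and no test was made of the lists themselves.

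**Figure D4:**
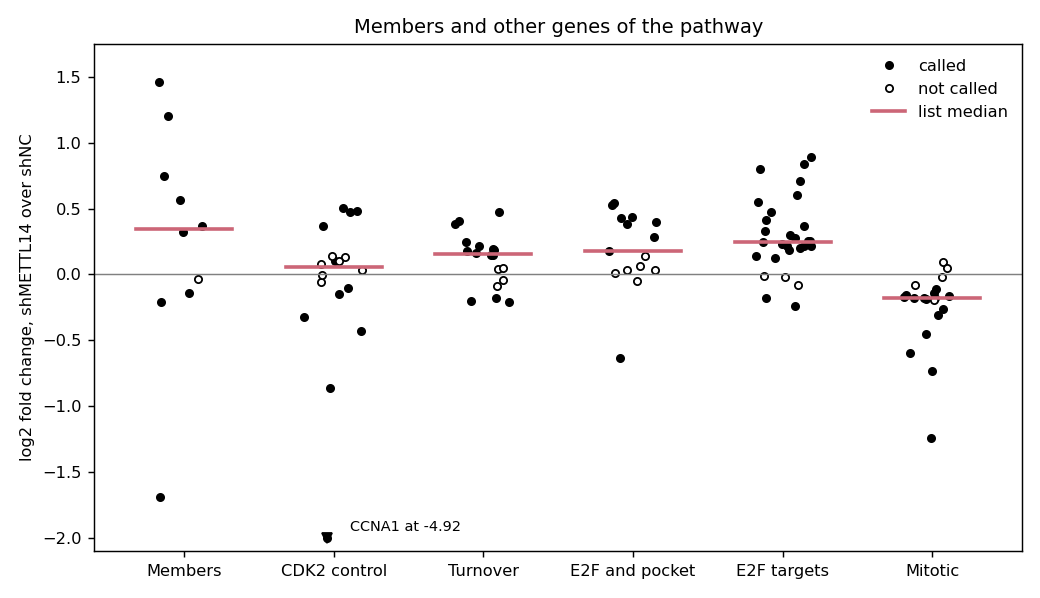
Log2 fold changes, shMETTL14 over shNC, of the 10 genes and of the 5 lists. Filled points were called by edgeR and open points were not, red bars are list medians, and points are spread sideways only for legibility. Points of the E2F target list lie mostly above 0 (median 0.25) and those of the mitotic list mostly below (median -0.18), and CCNA1, off the scale at a fitted -4.92, rests on 2 counts in shMETTL14.

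The 10 transcripts were also read for GGACT, the word most favoured by the m6A methyltransferase. For each gene, the GENCODE 29 transcript with the longest coding sequence was read, which need not be the longest transcript. For CDKN1B it had 897 bases and for CDK2 1725 bases, where all annotated exons cover 2811 and 3894 bases. The densities below hold for the transcript read only. Over 12788 tested genes the median was 0.938 copies per kilobase, with quartiles of 0.568 and 1.41. CCNE1, with 2 copies, had 0.979 per kilobase and CCNE2, with 3 copies, 0.901, so both cyclin E transcripts lay near the median. CDK2 (1.74) and CDC25A (1.59) lay above the upper quartile. CDKN1C (0.517) and RBL1 (0.528) lay below the lower quartile, and E2F1 (1.20), CDKN1B (1.11), FBXW7 (0.885) and RB1 (0.835) lay between. The genes with the highest and lowest fold changes, CCNE1 and CDKN1C, thus had 2 copies and 1 copy. Methylation of these transcripts was not measured in these libraries, and the scan was chosen after results were known.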

How the data were processed

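The authors deposited raw read counts per Ensembl gene ID for 4 libraries (2 shNC, 2 shMETTL14). Per the submitters' processing notes, which give no role or order, HISAT2 2.1.0, StringTie 1.3.6, HTSeq 0.13.5, edgeR and GRCh38 were used. The annotation release and strand setting are not given in the sources used here. Lines that name no gene (19.1% to 19.9% of counts) were left out, and 0 other sample columns were present. Of 60671 gene IDs, 58453 were found in GENCODE 29 (GRCh38), the source of coordinates and lengths.

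Counts were fitted with edgeR 4.0.16 in R 4.3.3 (quasi-likelihood F-test, TMM, group as the only term, filterByExpr, needing 10 counts in enough libraries and 15 in all). P-values were adjusted by Benjamini-Hochberg over 16309 genes and called under 0.05. The SE was derived from the F statistic. The procedure was run on simulated data in which 200 genes changed, equally in both directions, with the same dispersion for all genes. In the real data 52.5% of genes were called, so the simulation does not cover scaling or error rates at that extent. Alternatives were DESeq2 1.42.0, other scalings and filters, a replicate block, and leaving out each library. The replicate numbers share only a number. Replicates differed by more than sampling noise (chi-square per gene 2.80 and 2.30). The 10 genes, the gene lists and the naming rule were chosen with earlier results of these data known. The rule named the 10 genes, METTL14, any gene of 3 regulatory lists, the 3 highest and 3 lowest called genes of the E2F target and mitotic lists, and the 5 genes nearest to CCNE1. PMEL, INTS8, NDUFAF6 and the cell type markers were added for overlaps and labels. A further NB marker is not reported here.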

Additional observations from a re-analysis of the deposited data

How the results depend on the processing

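Over 11 alternatives METTL14 stayed called, from -1.33 with upper quartile scaling to -1.21 without shMETTL14 replicate 1. The 6 genes called higher among the 10 stayed at 6 in each alternative. DESeq2 called 1 of the 10 genes lower where edgeR called 3, 6 of the CDK2 control genes (3 higher, 3 lower) rather than 11, 8 of the turnover genes (7 higher, 1 lower) rather than 14, and 1 E2F target lower rather than 2; the cause was not tested. Upper quartile scaling, which moved the median of all genes by -0.07 on the log2 scale, called 6 turnover genes higher and 5 lower. With 1 library left out, the counts of lower calls ran from 1 to 3 for the 10 genes, from 3 to 5 for the CDK2 control list, from 1 to 3 for the turnover list, from 1 to 2 for the E2F targets and from 11 to 16 for the mitotic list. The lone library of a group was then assumed to vary like the other group. Of 856 single-gene values, 757 kept direction and side of the threshold, 74 lost the call and 2 gained it (USP37 and DDB1, lower under upper quartile scaling). The other 23 turned direction in genes that were called in neither fit. Upper quartile scaling gave CKS1B -0.033, USP28 -0.030, RNF123 -0.020, TFDP2 -0.035, LIN52 -0.034, LIN54 -0.0038 and RBBP4 -0.054, and library size alone gave CKS1B -0.011, USP28 -0.0070, TFDP2 -0.012, LIN52 -0.012 and RBBP4 -0.032. CKS2 was 0.0031 with DESeq2 and 0.0069 without a filter, and RBBP4 -0.0046 with at least 10 counts in every library. With 1 library left out, values ran from -0.030 to 0.10 for CKS1B, from -0.017 to 0.011 for CKS2, from -0.36 to 0.77 for SPDYA, from -0.031 to 0.11 for USP28, from -0.052 to 0.16 for RNF123, from -0.0041 to 0.076 for TFDP2 and from -0.016 to 0.083 for LIN52. Of the 9 pairs of neighbours in the order of levels in shNC, 6 were apart with all exons and 9 with the longest transcript.

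The replicate numbers did not pair the libraries: the correlation of deviations of same-numbered libraries was -0.0018. With the replicate block, 9 of the 10 genes were called as before, METTL14 had -1.26 and 8926 genes were called rather than 8561. All genes called across the table numbered 5556 with DESeq2. With 2 libraries per group the calls rest on the spread that edgeR shares across genes, and low counts (CCNA1, LIN37) limit what can be said of a gene.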

Other observations

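The 5 genes whose pattern over the 4 libraries lay nearest to that of CCNE1, by Euclidean distance of log2 CPM after the shNC mean was subtracted and among 11624 genes with sufficient expression, were PHLDA1 (distance 0.0623), LRATD2 (0.0947), BCYRN1 (0.0982), SEMA3D (0.114) and FN3K (0.117). PHLDA1 had 427 and 425 counts in shNC and 1193 and 1108 in shMETTL14, a log2 fold change of 1.44. SEMA3D, which encodes a secreted semaphorin, had 182 and 190 counts in shNC and 554 and 506 in shMETTL14, at 1.52. BCYRN1, a noncoding RNA gene whose repeat-derived sequence has many near copies, had 1.47, so its counts are uncertain. LRATD2 had 1.47 and FN3K, with 46 to 141 counts per library, 1.49. With 4 libraries in 2 groups, nearness mostly reflects an equal fold change, and CCNE2 with 1.20 was not among these genes.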
